A study of Mus musculus with 8 samples.

Results

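Heat shock factor 1 (HSF1) is the transcription factor that switches on chaperone genes when proteins unfold. In unstressed cells chaperones hold it inactive in the cytosol and nucleus. Heat and other proteotoxic stress free it to form trimers, which bind heat shock elements in the promoters of its targets, and the mRNA of the strongly inducible targets builds up within minutes. Their products refold or sort damaged proteins. A set of 10 genes of this response were examined in AML12 cells, a hepatocyte line from mouse liver, by gene symbol: Hspa1a, Hspa1b, Hspa8, Hsph1, Hsp90aa1, Hsp90ab1, Hspb1, Dnajb1, Bag3 and Hspa4. All 10 were found among the 55401 genes in the RNA-seq tables. The question was whether dishes placed on an energised coil held more heat shock mRNA, as warmed cells would.

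The study compared 4 control dishes with 4 dishes that spent 1 h under Opti-ELF-WMF, a pulsed magnetic field with a peak intensity of 100 mG, a pulse width of 4 ms and pulse frequencies stepping from 1 to 8 Hz. By the paper's general methods, control and exposed cells came from a single batch, but whether every dish here shared it is not stated. The cells were grown in medium with serum, dexamethasone and insulin-transferrin-selenite. Control dishes stood in another incubator of the same model, in the same setup with the stimulator off, so the incubator and the field cannot be told apart. The paper reported that a stronger field, applied for longer, left the temperature of the medium unchanged by a digital thermometer. No dish was warmed on purpose, so the response of these cells to heat was not measured. The p-values measure the spread between dishes, which may all be of a single batch. Expression was given as TPM, a relative measure of transcript abundance that corrects each gene for transcript length and brings every dish to an equal total, so levels of different genes can be compared. The scaling removes the sequencing depth, which is therefore unknown. Transcripts of the mitochondrial genome, counted by symbols starting with mt-, held 8.69% to 9.42% of TPM in control dishes and 5.99% to 7.69% in exposed dishes. A smaller share of these raises the TPM of all other genes. Nuclear copies of mitochondrial genes under other symbols were not counted here, nor removed in the rescaling without mitochondrial genes. The hepatocyte markers Krt8 (2206 to 2431 TPM), Krt18, Hnf4a, Apob, Ttr and Alb (46.1 to 58.2 TPM) were present, Apoa1 was at 3.12 to 5.29 TPM and Afp at 0.48 to 1.33 TPM. The bile duct marker Krt19 was at 1101 to 1244 TPM, while Epcam did not pass 0.13 TPM. The 8 markers of leukocytes, endothelium and stellate cells or fibroblasts summed to between 2.33 and 3.51 TPM in control dishes and between 1.58 and 3.09 TPM in exposed dishes, with Adgre1 and Cdh5 listed at 0 in every dish.

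HSF1 reads repeats of a short GAA unit in alternating direction. Promoter windows from RefSeq on GRCm38.p6, running from 250 bases before to 50 bases after a transcription start, were matched for 7 of the 10 genes. Hspa8, Hsp90aa1 and Hsp90ab1 were not matched. A core of 2 units, spelled GAANNTTC or TTCNNGAA (N being any base, and both strands covered), was searched along with the full heat shock element of 3 units. The full element is a core followed by 2 bases of any kind and 1 more unit in the alternate direction, so it always contains a core. The windows below are shown because they set the gene with a full element beside genes with the core alone and a gene with neither. Capitals mark every full or core element.
Hspa1a, chr17:34972107-34972406, minus strand: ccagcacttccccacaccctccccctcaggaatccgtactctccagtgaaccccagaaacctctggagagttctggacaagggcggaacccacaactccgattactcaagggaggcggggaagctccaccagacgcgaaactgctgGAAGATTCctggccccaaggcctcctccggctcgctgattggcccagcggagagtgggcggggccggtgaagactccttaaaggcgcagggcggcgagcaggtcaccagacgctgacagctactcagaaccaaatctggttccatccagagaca
Hsph1, chr5:149636287-149636586, minus strand: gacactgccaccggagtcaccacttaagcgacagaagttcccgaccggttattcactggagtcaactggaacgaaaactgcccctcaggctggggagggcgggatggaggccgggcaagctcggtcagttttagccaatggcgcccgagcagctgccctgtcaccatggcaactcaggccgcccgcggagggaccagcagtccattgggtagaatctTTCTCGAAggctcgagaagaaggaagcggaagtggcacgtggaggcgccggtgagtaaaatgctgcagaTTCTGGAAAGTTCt
Hspb1, chr5:135887669-135887968, plus strand: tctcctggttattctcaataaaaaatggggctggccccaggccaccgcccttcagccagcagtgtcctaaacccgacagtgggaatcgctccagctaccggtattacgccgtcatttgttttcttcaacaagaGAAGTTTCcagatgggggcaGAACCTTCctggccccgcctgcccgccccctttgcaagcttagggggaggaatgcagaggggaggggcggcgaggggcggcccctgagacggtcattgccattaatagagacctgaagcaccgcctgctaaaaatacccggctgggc
Bag3, chr7:128523333-128523632, plus strand: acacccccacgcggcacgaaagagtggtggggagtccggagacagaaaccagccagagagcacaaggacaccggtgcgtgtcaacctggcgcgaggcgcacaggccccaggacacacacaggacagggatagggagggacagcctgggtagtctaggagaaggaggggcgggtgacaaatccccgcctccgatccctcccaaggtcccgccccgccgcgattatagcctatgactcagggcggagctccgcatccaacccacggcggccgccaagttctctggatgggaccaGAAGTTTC
Hspa4, chr11:53300430-53300729, minus strand: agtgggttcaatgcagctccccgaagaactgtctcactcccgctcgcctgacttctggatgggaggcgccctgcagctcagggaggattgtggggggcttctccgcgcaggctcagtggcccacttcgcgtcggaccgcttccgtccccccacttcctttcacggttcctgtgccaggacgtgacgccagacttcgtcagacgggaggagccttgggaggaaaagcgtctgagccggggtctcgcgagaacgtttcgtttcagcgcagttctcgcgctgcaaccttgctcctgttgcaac
In the Hspa1a window the core begins 104 bases before the start. The window of Hspa1b is identical to it at 296 of 300 bases and holds the core at the same distance. Hsph1 was the gene with the full element, beginning 36 bases after this start, beside a core 33 bases before it. In Hspb1, cores begin 117 and 97 bases before the start, and in Bag3 a core begins 42 bases after it. Neither spelling was found in the windows of Dnajb1 and Hspa4. In all, 5 of the 7 matched genes held the core, against 17% of the 27025 genes with a window, and 1 of 7 held the full element, against 0.662%. The 5 include both Hspa1a and Hspa1b, whose windows are nearly the same, and the list was chosen as genes of the heat shock response. A match describes letters in a window, and elements outside it or with imperfect units were not searched.

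The 10 mRNAs covered a wide range of levels. Averaged over the 8 dishes, Hspa8 was at 2667 TPM, Hsp90ab1 at 2175, Hsp90aa1 at 590.4, Hspa4 at 208.2, Hsph1 at 104.0, Bag3 at 62.6, Hspb1 at 46.0, Dnajb1 at 31.0, Hspa1b at 5.31 and Hspa1a at 4.02. Neighbours in this order did not overlap in any dish, apart from the last pair, Hspa1b and Hspa1a. The genes best known for a large heat response, the Hspa1 pair and Dnajb1, were thus the least abundant, and the constitutive chaperones Hspa8 and Hsp90ab1 the most abundant. Together the 10 genes made up 0.567% to 0.583% of TPM in control dishes and 0.593% to 0.617% in exposed dishes, so the groups did not overlap in this sum. Hspa8 alone held 44.8% to 45.7% of it in every dish, so the sum mostly follows the constitutive genes.

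**Figure D1:**
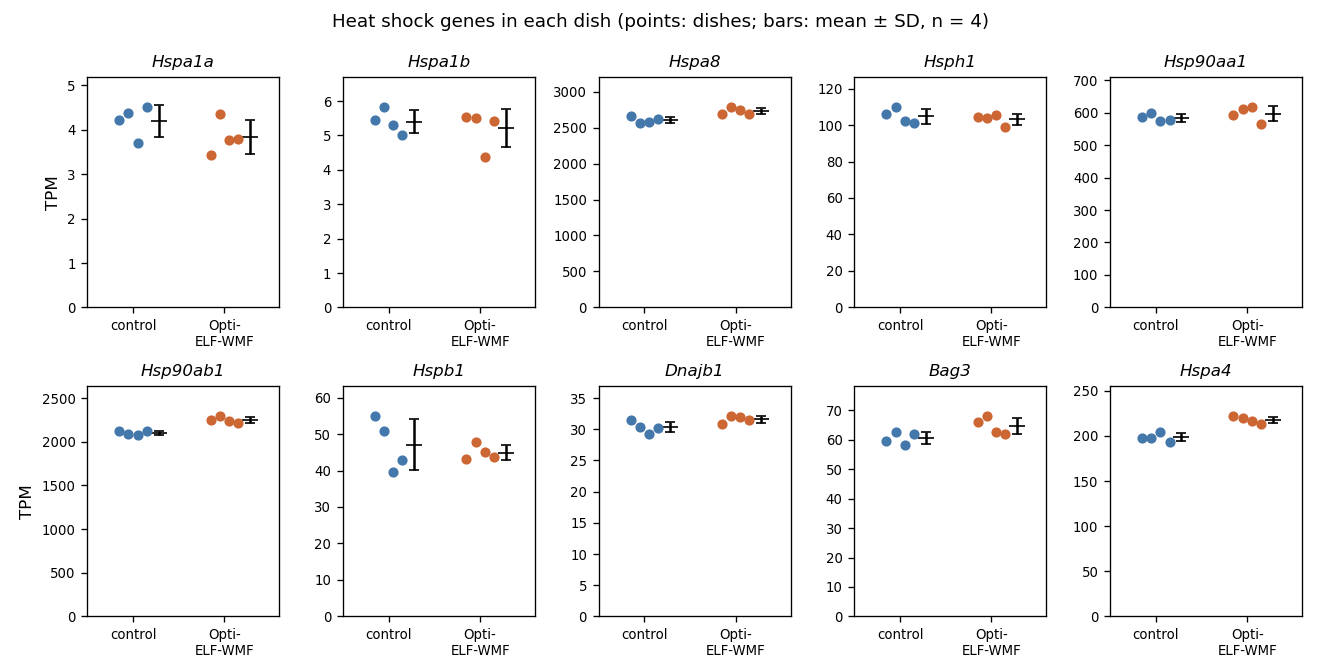
TPM of each of the 10 heat shock genes in 4 control dishes (blue points) and 4 Opti-ELF-WMF dishes (orange points), with the mean ± SD of each group beside them. Every axis starts at 0, and the groups are apart in Hspa8, Hsp90ab1 and Hspa4 and overlap in the other 7 genes.

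Hspa1a and Hspa1b encode the stress-inducible cytosolic Hsp70, the classical readout of HSF1 activity. Both lie on chromosome 17 of GRCm38, Hspa1a from 34969190 to 34972156 and Hspa1b from 34956436 to 34959238, on the minus strand. Hspa1a was at 4.22, 4.38, 3.70 and 4.51 TPM in control dishes and at 3.43, 4.35, 3.77 and 3.79 TPM in exposed dishes. Its groups overlapped, and 3 of the 4 exposed dishes lay below 3 of the 4 control dishes. On the log2(TPM + 1) scale, which understates changes of genes this low, the difference of exposed from control dishes was -0.11 (95% confidence interval -0.29 to 0.08, limma adjusted p = 0.584 over 12122 genes). Hspa1b was at 5.45, 5.82, 5.31 and 5.01 TPM in control dishes and at 5.55, 5.52, 4.38 and 5.42 TPM in exposed dishes. The exposed dishes lay within the control range except for replicate 3, the lowest of all 8, and the log2 difference was -0.04 (interval -0.22 to 0.13, limma adjusted p = 0.840). Without that dish it was 0.02. The transcripts of these genes are 99.2% identical over 2201 bases, so their split is uncertain. Summed, they were at 9.60 ± 0.49 TPM (SD, n = 4) in control dishes and 9.05 ± 0.71 TPM (SD, n = 4) in exposed dishes. Fitted as a single gene, the sum differed by -0.08 on the log2 scale (interval -0.22 to 0.06, limma adjusted p = 0.609), and its groups overlapped.

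Dnajb1 (chromosome 8, 83608193 to 83612653, plus strand) encodes the Hsp40 protein that delivers unfolded clients to Hsp70 and is a rapid heat shock gene. It was at 31.43, 30.39, 29.32 and 30.25 TPM in control dishes and at 30.77, 32.09, 31.95 and 31.52 TPM in exposed dishes. The groups overlapped only through control replicate 1, which lay above exposed replicate 1, and were apart when either dish was left out. The log2 difference was 0.06 (interval -0.02 to 0.13, limma adjusted p = 0.467).

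Hsph1 and Hspa4 both encode Hsp110 proteins, large relatives of Hsp70 that recharge it with ATP. Hsph1 (chromosome 5, 149614287 to 149636376, minus strand) is the heat-inducible form. Its TPM was 105.87, 109.76, 102.21 and 101.11 in control dishes and 104.54, 104.12, 105.40 and 98.86 in exposed dishes. The groups overlapped between 101.11 and 105.40 TPM, with control replicates 1 and 2 above every exposed dish and exposed replicate 4 below every control dish. Hsph1 differed by -0.02 on the log2 scale (interval -0.10 to 0.06, limma adjusted p = 0.826). Without control replicate 2 or exposed replicate 4 it was 0.00.

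Hspa4 (chromosome 11, 53259814 to 53300457, minus strand) is the largely constitutive form. It was at 198.25, 198.07, 204.45 and 193.47 TPM in control dishes and at 221.89, 219.50, 216.45 and 213.51 TPM in exposed dishes. Every exposed dish lay above every control dish, with means of 198.6 ± 4.5 and 217.8 ± 3.6 TPM (SD, n = 4 each), 9.71% apart. This was the largest difference among the 10 genes, 0.13 on the log2 scale (interval 0.08 to 0.19), with an unadjusted p of 0.000365 and an adjusted p of 0.122 by limma over all genes, which does not pass 0.05. Its adjusted p ran from 0.109 to 0.273 over the alternative settings.

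Hsp90aa1 and Hsp90ab1 encode the cytosolic Hsp90 proteins, which mature kinases and steroid receptors and help keep HSF1 inactive. Hsp90aa1 (chromosome 12, 110690605 to 110702728, minus strand), the stress-inducible form, was at 586.11, 599.94, 573.65 and 577.42 TPM in control dishes and at 591.40, 612.28, 616.63 and 565.41 TPM in exposed dishes. The lowest of all 8 dishes was exposed replicate 4, and the groups overlapped. The log2 difference was 0.03 (interval -0.04 to 0.10, limma adjusted p = 0.709), and it was -0.00073 when TPM was rescaled without mitochondrial genes. Adding its 3 near-identical copies left it at 0.03.

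Hsp90ab1 (chromosome 17, 45567775 to 45573271, minus strand), the constitutive form, was at 2119.12, 2086.90, 2080.25 and 2122.26 TPM in control dishes and at 2247.82, 2292.46, 2237.22 and 2210.30 TPM in exposed dishes. Here the groups did not overlap, with means of 2102 ± 21.6 and 2247 ± 34.2 TPM (SD, n = 4 each), 6.89% apart. The log2 difference was 0.10 (interval 0.05 to 0.14), with an unadjusted p of 0.00112 and an adjusted p of 0.122 by limma, and the adjusted p ran from 0.117 to 0.280 over the alternative settings.

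Hspa8 (chromosome 9, 40800984 to 40810087, plus strand) encodes the constitutive Hsc70, which folds new proteins and uncoats clathrin vesicles. It was at 2662.29, 2570.37, 2575.33 and 2620.54 TPM in control dishes and at 2691.00, 2782.91, 2744.19 and 2691.79 TPM in exposed dishes. All exposed dishes lay above all control dishes, the nearest pair being 2691.00 and 2662.29. The log2 difference was 0.07 (interval 0.01 to 0.12, unadjusted p = 0.0172, limma adjusted p = 0.211). Under each of the 3 other scalings the groups overlapped and the difference was 0.04 to 0.05. Hspa8 shares reads with 5 near-identical copies, of which Gm15459 (99.7% identical over its 1941 bases) was at 713.5 TPM in control dishes and 752.7 TPM in exposed dishes, so its level is uncertain. With the copies added, an alternative chosen after the data were examined, Hspa8 was at 3327 ± 52.6 and 3487 ± 58.0 TPM (SD, n = 4 each) and the log2 difference was again 0.07 (limma adjusted p = 0.197).

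Hspb1 (chromosome 5, 135887919 to 135889563, plus strand) encodes Hsp25, a small heat shock protein that holds unfolded proteins without ATP. Its values were 54.88, 50.84, 39.65 and 43.00 TPM in control dishes and 43.09, 47.79, 45.14 and 43.70 TPM in exposed dishes. The control dishes spread more widely than the exposed dishes, which all lay inside the control range. The log2 difference was -0.06 (interval -0.26 to 0.15, limma adjusted p = 0.822), and without control replicate 1 it was 0.02. Adding its near-identical copy, Hsp25-ps1, left it at -0.06.

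Bag3 (chromosome 7, 128523616 to 128546981, plus strand) encodes a cochaperone that releases clients from Hsp70 and directs them to autophagy. It was at 59.52, 62.75, 58.35 and 61.87 TPM in control dishes and at 65.96, 68.00, 62.70 and 61.98 TPM in exposed dishes. Exposed replicates 1 and 2 lay above all control dishes, and the other exposed dishes lay within the control range. The log2 difference was 0.09 (interval 0.0048 to 0.18, unadjusted p = 0.0407, limma adjusted p = 0.295).

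None of the 10 genes passed an adjusted p of 0.05 by limma, and 0% of the 12122 genes tested did. At an unadjusted p under 0.05, Hspa4, Hsp90ab1, Hspa8 and Bag3 were higher and 0 genes of the list were lower, against 12.0% of all genes higher and 3.65% lower (15.6% in either direction). The groups were apart in 3 of the 10 genes, all higher in exposed dishes, against 8.01% of all genes apart and higher, 1.86% apart and lower and 9.87% in either direction. Among the 10 differences, 6 were positive and 4 negative, beside 7720 positive and 4402 negative among the 12122 genes tested. The median of the 10 was 0.04, beside 0.03 for all genes tested. The intervals had upper ends between 0.06 and 0.19, taken singly and not adjusted for the number of genes. Each thus left out a rise of 1 on the log2 scale, which is a doubling of TPM + 1. The rise that warming would give in these cells was not measured, so that size is only a yardstick. Exposed replicate 2 was the highest dish for 4 of the 10 genes, and control replicate 3 was the lowest dish for 4. The same counts over all genes were not taken. Exposed replicate 2 had the lowest mitochondrial share of TPM, and a link between the 2 was not tested. Of all genes with an unadjusted p under 0.05, 76.6% were higher on the deposited scale, against 63.3% under upper-quartile scaling, 55.2% under median-of-ratios scaling and 50.6% with TPM rescaled without mitochondrial genes. With TPM rescaled without mitochondrial genes, the median of the list was 0.01 and that of all genes -0.0018. Under that scaling, as under median-of-ratios and upper-quartile scaling, Hspa4 and Hsp90ab1 were the genes of the list with groups apart and an unadjusted p under 0.05. Of all genes, 4.58% were apart and higher under median-of-ratios scaling and 5.47% under upper-quartile scaling. The share was smaller with TPM rescaled without mitochondrial genes.

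**Figure D2:**
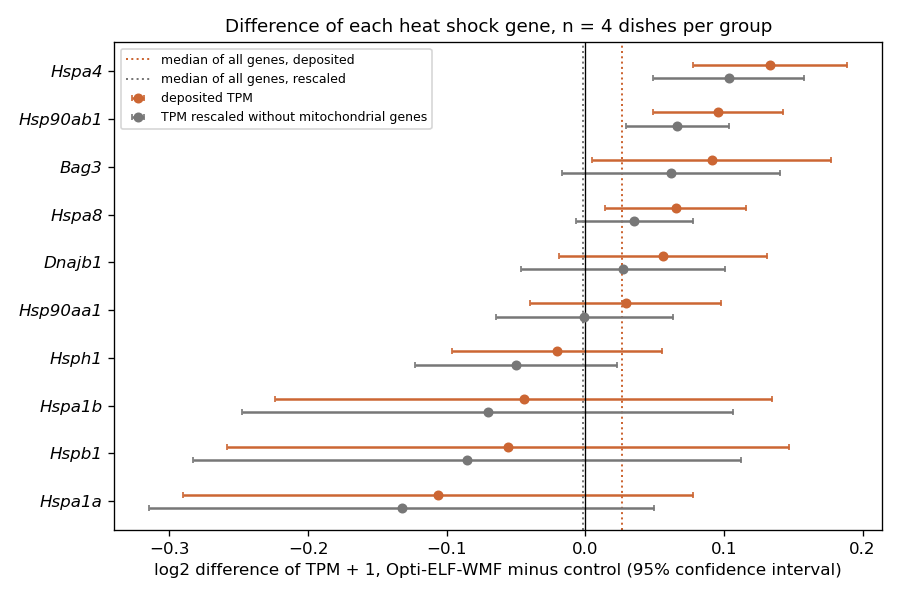
Difference of each heat shock gene between exposed and control dishes on the log2(TPM + 1) scale, with 95% confidence intervals from limma (n = 4 dishes per group), on the deposited TPM (orange) and on TPM rescaled without mitochondrial genes (grey). Dotted lines mark the median of all genes tested, 0.03 and -0.0018, and the interval of no gene reaches above 0.19.

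Ratios between relatives do not depend on how a dish is scaled. The 3 ratios here, each of a stress-inducible gene to its constitutive relative, were chosen after the values were seen and are given without a test. The Hspa1 pair was at 3.63, 3.97, 3.50 and 3.63 TPM per 1000 TPM of Hspa8 in control dishes and at 3.34, 3.55, 2.97 and 3.42 in exposed dishes. Only exposed replicate 2 lay inside the control range, and the others were below it. Hsp90aa1 made up 21.7%, 22.3%, 21.6% and 21.4% of the Hsp90aa1 and Hsp90ab1 total in control dishes and 20.8%, 21.1%, 21.6% and 20.4% in exposed dishes, where replicate 3 lay inside the control range and the others below it. Hsph1 made up 34.8%, 35.7%, 33.3% and 34.3% of the Hsph1 and Hspa4 total in control dishes and 32.0%, 32.2%, 32.7% and 31.6% in exposed dishes. In this last pair every exposed dish was below every control dish. In each pair the mean share of the inducible gene was lower in exposed dishes. The 3 constitutive genes are also those with groups apart and higher, so the ratios are not separate from those rises. On their own, the summed Hspa1 pair, Hsp90aa1 and Hsph1 differed by -0.08, 0.03 and -0.02 on the log2 scale, with overlapping groups.

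**Figure D3:**
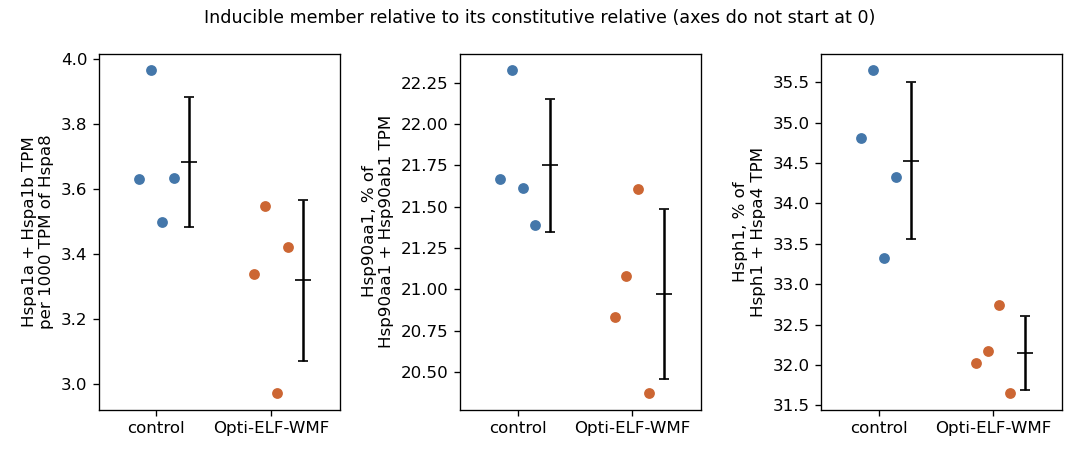
Level of a stress-inducible gene relative to its constitutive relative in each dish: Hspa1a plus Hspa1b per 1000 TPM of Hspa8, Hsp90aa1 as a percentage of both Hsp90 genes, and Hsph1 as a percentage of both Hsp110 genes. Points are dishes, bars are the mean ± SD (n = 4), axes do not start at 0, and the groups are apart in the Hsph1 panel, at 33.3% or more in control dishes and 32.7% or less in exposed dishes.

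Other parts of the pathway were read from fixed lists. HSF1 itself (Hsf1) was at 51.7 ± 2.4 TPM in control dishes and 52.6 ± 1.0 TPM in exposed dishes (SD, n = 4 each), a log2 difference of 0.03 (limma adjusted p = 0.787). Its relative Hsf2 differed by 0.08 (adjusted p = 0.588, limma), Hsf4 by -0.06 (adjusted p = 0.713, limma), and Hsbp1, which encodes a small protein that binds HSF1 trimers, by 0.01 (adjusted p = 0.945, limma). The groups overlapped in all 4, and Hsf5, at 0.11 TPM or less, was too low to test. Cirbp and Rbm3 encode RNA-binding proteins whose mRNA rises in the cold and falls on warming. Cirbp was at 26.33, 26.93, 30.53 and 27.60 TPM in control dishes and at 30.04, 26.15, 23.79 and 32.08 TPM in exposed dishes, which held both the highest and the lowest value, with a log2 difference of 0.00 (interval -0.19 to 0.20, limma adjusted p = 0.996). Rbm3 was at 846.61, 897.05, 886.12 and 872.63 TPM in control dishes and at 991.91, 899.24, 912.52 and 931.79 TPM in exposed dishes. All exposed dishes lay above all control dishes, with a log2 difference of 0.09 (interval 0.02 to 0.17, unadjusted p = 0.0210, limma adjusted p = 0.226). Under median-of-ratios scaling, upper-quartile scaling and rescaling without mitochondrial genes its groups overlapped, with differences of 0.07, 0.08 and 0.06 and unadjusted limma p-values of 0.123, 0.103 and 0.0952.

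Of 25 further HSF1 targets and cochaperones, all abundant enough to test, 0 passed an adjusted p of 0.05 by limma. At an unadjusted p under 0.05, 9 were higher and 1 was lower, against 12.0% and 3.65% of all genes, and the groups were apart in 7, all higher, against 8.01%. These counts changed with the scaling. Under median-of-ratios scaling 2 were higher (Ahsa1, Cdc37) and 2 lower (Ahsa2, Chordc1) at an unadjusted p under 0.05, against 6.78% and 5.51% of all genes. Under upper-quartile scaling 3 were higher (Ahsa1, Cdc37, Ptges3), against 8.20% of all genes, and with TPM rescaled without mitochondrial genes 3 were higher (Ahsa1, Cdc37, Hspd1), against 5.70%, with Ahsa2 and Chordc1 lower in both. Of all genes, 4.76% were lower at that p under upper-quartile scaling and 5.57% with TPM rescaled without mitochondrial genes. Under median-of-ratios scaling, upper-quartile scaling and this rescaling, the groups were apart in 1, 2 and 1 higher and 1, 1 and 2 lower genes of the 25. The share of all genes apart and higher was at most 5.47% (upper-quartile), and that apart and lower at most 3.38% (median-of-ratios). On the deposited scale the median log2 difference was 0.05, beside 0.03 for all genes, and the differences ran from -0.09 to 0.12. The highest was that of Ahsa1, the activator of the Hsp90 ATPase. Ahsa1 was at 162.97, 165.54, 160.32 and 166.60 TPM in control dishes and at 181.36, 179.12, 175.40 and 175.08 TPM in exposed dishes, which all lay above the control dishes (log2 difference 0.12, adjusted p = 0.122 by limma). Another 3 Hsp90 cochaperones had groups apart: Cdc37, which brings kinases to Hsp90 (0.10 on the log2 scale), Ptges3, which encodes p23 (0.09), and Stip1, which links Hsp70 to Hsp90 (0.06). Their adjusted p-values by limma were 0.192, 0.161 and 0.235. Hspd1, the mitochondrial chaperonin Hsp60, was at 770.02, 745.13, 738.69 and 730.58 TPM in control dishes and at 816.07, 787.86, 810.79 and 774.96 TPM in exposed dishes, again with groups apart (0.10, adjusted p = 0.142 by limma). The other genes with groups apart were Cacybp, whose product links ubiquitin ligases to their targets (0.09), and Dnajb6, an Hsp40 that keeps proteins from aggregating (0.08), with adjusted p-values of 0.225 and 0.198 by limma. Ubb, a polyubiquitin gene (0.08), and Bag1, an Hsp70 cochaperone (0.07), had unadjusted p-values of 0.0291 and 0.0334 with overlapping groups. On the lower side stood Chordc1, an Hsp90 cochaperone, at 106.0 ± 4.5 TPM in control dishes and 99.5 ± 6.2 TPM in exposed dishes (SD, n = 4 each, log2 difference -0.09, adjusted p = 0.388 by limma), and Ahsa2, a relative of Ahsa1 (-0.08, unadjusted p = 0.0388, adjusted p = 0.288 by limma). Both had overlapping groups.

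**Figure D4:**
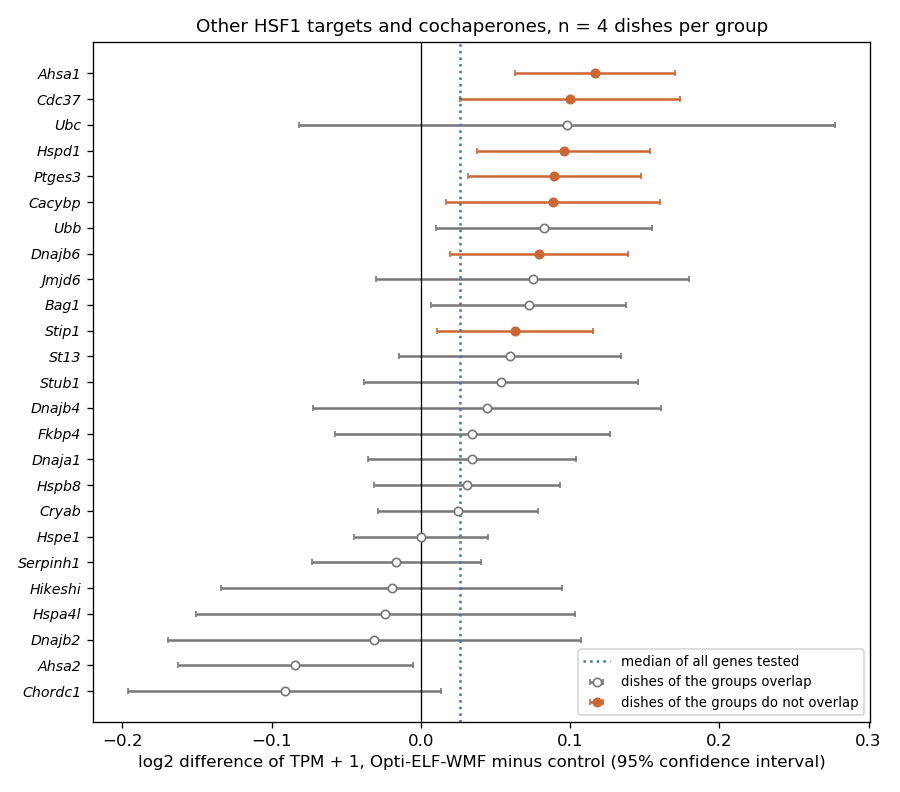
Difference of 25 other HSF1 targets and cochaperones between exposed and control dishes on the log2(TPM + 1) scale, with 95% confidence intervals from limma (n = 4 dishes per group). Filled points are the 7 genes whose groups do not overlap, all to the right of the dotted median of all genes tested (0.03), and the differences run from -0.09 for Chordc1 to 0.12 for Ahsa1.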

How the data were processed

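Total RNA of 8 dishes was made into stranded poly(A) libraries and read as paired ends on a NovaSeq. The authors deposited 1 table of TPM per dish, and the submitters' processing notes name Trimmomatic 0.39, STAR 2.7.4a, RSEM 1.3.3 and mm10. The annotation release is not given in the sources used here. TPM keeps no depth, so no counting error or detection floor is given. The fit covered the 12122 genes that reached 1 TPM in 4 dishes or more. limma 3.58.1 in R 4.3.3 (eBayes with a trend) was run on log2(TPM + 1), with Benjamini-Hochberg adjustment over all genes and a threshold of 0.05. It was also run on simulated data. The changes planted there were larger than any difference of the heat shock genes listed here, so differences as small as theirs were not covered. Dishes were compared in pairs for duplicated values, and at most 3.79% were identical. Loci are from GENCODE M21 on GRCm38, the assembly behind mm10. A near-identical copy was another gene whose transcript matched by BLAST at 95% identity or more along 70% or more of its bases.

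The genes and lists were chosen with earlier results of these data known. Of the other lists, the text names genes with an unadjusted p under 0.05 or groups apart, the largest and smallest difference, and all genes of the HSF and cold-inducible lists. Alternatives covered the pseudocount, filter, scaling, trend, replicate block, summing of near-identical genes and leaving out each dish. No count model was used, since TPM values are not read counts.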

Additional observations from a re-analysis of the deposited data

Results flagged for a closer look

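Across the 10 heat shock genes and the other genes named here, 54 groups of 4 dishes were examined for a dish far from the other 3 by Dixon's criterion, and 3 met it, where chance gives about 2.7. Opti-ELF-WMF replicate 3 held 4.38 TPM of Hspa1b, and the other exposed dishes held 5.42 to 5.55 TPM. Ahsa2 was at 72.18 TPM in control replicate 2, against 67.41 to 68.18 TPM in the other control dishes. In Opti-ELF-WMF replicate 2 Ahsa2 was at 68.53 TPM, against 63.32 to 64.20 TPM in the other exposed dishes.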

How the results depend on the processing

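None of the 10 heat shock genes passed an adjusted p of 0.05 by limma under any alternative run. Their lowest adjusted p over these was 0.109 (Hspa4). Over all genes the count past the threshold went from 0 to 1 with the filter at 1 TPM in every dish, with median-of-ratios or upper-quartile scaling, with TPM rescaled without mitochondrial genes and with no variance trend. It ran from 0 to 6 when single dishes were left out, at 6 without Opti-ELF-WMF replicate 2, 2 without control replicate 2 and 1 without control replicate 3. The 4 heat shock genes with an unadjusted p under 0.05 became 2 under the 3 other scalings and with no trend, where the share of all genes was 12.3% (median-of-ratios), 13.0% (upper-quartile), 11.3% (without mitochondrial genes) and 14.2% (no trend). They were 3 with every gene above 0 TPM tested, where Hspa8 no longer passed and the share of all genes was 10.1%. With single dishes left out they were 3 to 4, against 12.4% to 16.3% of all genes. The groups were apart in 4 of the 10, all higher, without control replicate 1, control replicate 2 or Opti-ELF-WMF replicate 1. The shares of all genes apart and higher were then 10.8%, 10.1% and 13.4%. The median log2 difference of the 10 was 0.013 with TPM rescaled without mitochondrial genes. That of the further targets and cochaperones was 0.024 there and 0.031 under median-of-ratios scaling. Differences near 0 changed sign. Under median-of-ratios, upper-quartile and mitochondria-free scaling, Hsbp1 was at -0.015, -0.0047 and -0.022 and Cirbp at -0.020, -0.010 and -0.027. Under the last, Hsp90aa1 was at -0.00073 and Hsf1 at -0.0027. With single dishes left out, Hspa1b ran from -0.074 to 0.024, Hsph1 from -0.037 to 0.0021, Hspb1 from -0.13 to 0.020, Hsbp1 from -0.0096 to 0.026 and Cirbp from -0.065 to 0.074. The cause was not tested. A replicate block (the replicate number as a term) gave heat shock gene counts of 0 past the threshold and 4 at an unadjusted p under 0.05. The share of all genes at that p was 15.6%. The median of the list was 0.042, and Rbm3 had an unadjusted limma p of 0.0508. Same-numbered dishes shared only a number (correlations of deviations -0.042 to 0.026), and no dish correlated best with its own number. Depth is not recorded in TPM, so its limits are unknown.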

Other observations

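Among 12112 tested genes outside the list, those whose log2(TPM + 1) followed the sum of Hspa1a and Hspa1b most closely over the 8 dishes were Irf1 (Pearson's r = 0.955, Spearman's rho = 0.857), Traf3ip1 (r = 0.942, rho = 0.905) and Flrt2 (r = 0.930, rho = 0.905). They were picked for this likeness, so it carries no test. Irf1 ran from 29.5 to 33.2 TPM, Traf3ip1 from 19.99 to 23.1 TPM and Flrt2 from 2.06 to 2.59 TPM.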
